A study of Mus musculus with 2 samples.

Results

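Genes that steer growing axons were followed through the cells of the mouse retina at E14.5. The set held 41 genes, of which 15 encode guidance ligands (Slits, netrin-1, semaphorins and ephrins), 22 encode their receptors (Robo proteins, *Dcc* and the Unc5 proteins, plexins, neuropilins and Eph receptors) and 4 encode adhesion molecules of axons (*Nrcam*, *L1cam*, *Cntn1* and *Cntn2*). They were taken by name, as the rows of the count matrices with these symbols, from a set drawn up with earlier results of these data known. All 41 were among the 28692 genes listed, 1 row each, and all 41 were detected in more than 3 cells, as were 17115 genes in all.

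The cells came from retinas of the mouse line Tg(Lhx4::EGFP)KN199Gsat/Mmucd, here called *LHX4::GFP*, in which a bacterial artificial chromosome carries EGFP under control of *Lhx4*, a homeobox gene active in early cone photoreceptors. Retinas of GFP-positive littermates from 2 litters were pooled in a single suspension and sorted into GFP+ and GFP− cells, and each gate gave 1 droplet library. Both gates thus hold cells of the same transgenic embryos, and no wild-type retina was part of the comparison. The litters cannot be told apart in the libraries, and a cell counts as GFP− wherever the transgene gave no signal at the time of the sort.

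A growing axon reads cues with receptors on its growth cone. Slits act on Robo receptors and mostly repel, netrin-1 attracts through Dcc and repels through Unc5 proteins, semaphorins act on plexins (the secreted class together with neuropilins), and ephrins act on Eph receptors at cell contacts. In the retina these systems direct ganglion cell axons to the optic disc, decide whether they cross at the chiasm and order them in the brain by their position of origin, while photoreceptors send only short axons to the outer plexiform layer.

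The GFP+ library held 3728 cells with 16010591 unique molecular identifiers (UMIs, 1 for each captured transcript) and the GFP− library 4445 cells with 46778924. A level is the sum of a gene's UMIs over the cells of a group, scaled to 1000000 UMIs of that group (CPM). Levels carry 95% Poisson limits and ratios 95% binomial limits, both exact, given in parentheses or as a range. With 1 library per gate there were no replicates and no test was made: the intervals cover counting error only, not the spread between cells or embryos. Cells were grouped by UMIs of marker genes outside the set. In GFP+, 3667 cells were cone-like (98.4%). In GFP−, 2035 were progenitor-like, 804 neurogenic-like, 169 retinal ganglion cell (RGC) precursor-like, 886 RGC-like, 317 amacrine or horizontal cell (AC/HC)-like and 93 cone-like. Markers not used for grouping, summed by list, were highest in the group of their own name among the GFP+ cone-like and the GFP− groups: 862 CPM for cone markers in GFP+ cone-like, 10174 CPM for RGC markers in RGC-like, 2082 CPM for AC/HC markers in AC/HC-like, 2196 CPM for neurogenic markers in neurogenic-like and 4255 CPM for progenitor markers in progenitor-like cells. Some groups held more of another list than of their own. AC/HC-like cells had RGC markers (here *Gap43*, *Stmn2*, *Ina*, *Ebf3* and *Elavl3*) at 3571 CPM and neurogenic-like cells had progenitor markers at 2522 CPM. The RGC markers used for grouping summed to only 381 CPM in AC/HC-like cells, against 7319 CPM in RGC-like cells. RGC precursor-like cells had progenitor markers at 1812 CPM against RGC markers at 1451 CPM. The GFP− cone-like cells had neurogenic markers at 976 CPM against cone markers at 421 CPM. The part of this in the results for these groups was not tested. Blood markers summed to 434 CPM in progenitor-like cells and to 0.89 to 3.55 CPM in the other groups. No cell was set aside for blood UMIs, and their part in the results was not tested. Other-tissue markers were those of mesenchyme, vessels, microglia and pigment epithelium, without blood. Cells with 10 or more UMIs of these markers were 3 in GFP+ and 23 in GFP−. Without these cells, each count of members past 2-fold between cell groups or libraries was the same. The ganglion cell gene *Sncg* was at 3434 CPM in RGC-like cells and still at 24.4 CPM in progenitor-like cells, so that levels of a few CPM may include free RNA, whose part was not tested. The libraries shared 20 barcodes. Doublet calls were few (3 GFP+ and 55 GFP− cells) and were left in.

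**Figure D1:**
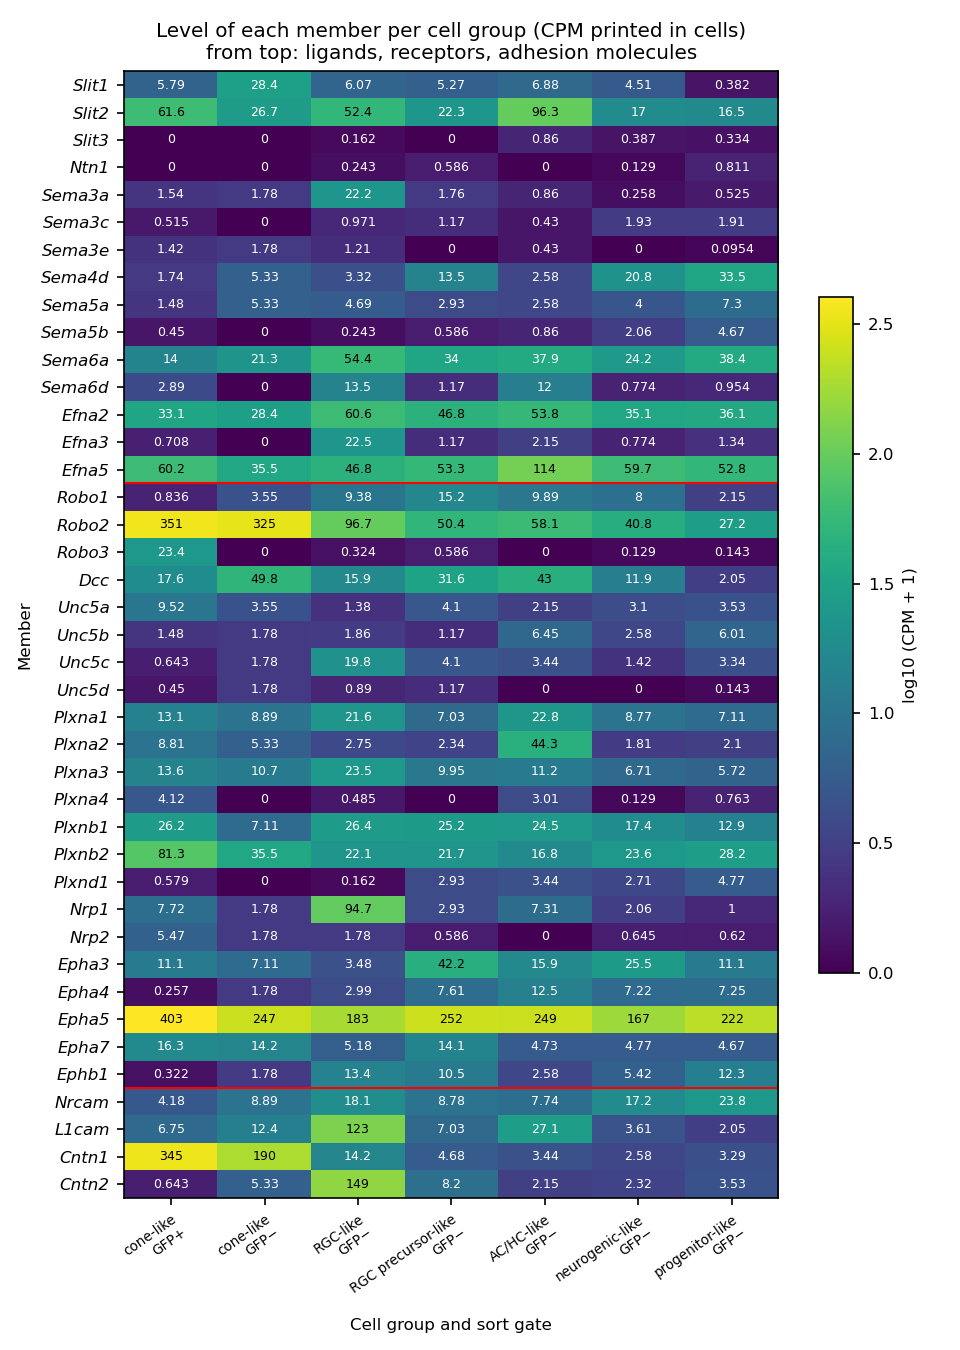
Level of each of the 41 members in 7 cell groups, with the CPM printed in each cell of the map and the colour showing log10 (CPM + 1). Red lines separate ligands, receptors and adhesion molecules. *Cntn1*, *Robo2* and *Epha5* have their brightest cells in the GFP+ cone-like column, *Cntn2*, *L1cam* and *Nrp1* in the RGC-like column, and *Plxna2* in the AC/HC-like column.

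By CPM, each group had at least 1 member at its highest level, though not always clearly so. Among 6 groups (the cone-like cells taken from GFP+), the member's level was highest in RGC-like cells for 12 members, in cone-like cells for 10, in AC/HC-like cells for 9, in progenitor-like cells for 6, in RGC precursor-like cells for 3 and in neurogenic-like cells for 1. The same count was not made over all genes, so these numbers describe the members only. GFP− cone-like cells were not among the 6 groups, and *Slit1* (28.4 CPM) and *Dcc* (49.8 CPM) were higher in them than in any of the 6. For 21 of the 41 the interval of the highest group lay apart from that of the next. *Sema3c*, the member of neurogenic-like cells, was not among these (1.93 CPM against 1.91 CPM in progenitor-like cells). Of the 21 members with intervals apart, RGC-like cells held 8 and cone-like cells 6: *Robo2*, *Robo3*, *Plxnb2*, *Nrp2*, *Epha5* and *Cntn1*. By mean UMIs per cell, *Epha5* (log2 -0.58) and *Nrp2* (log2 -0.12) were instead lower in GFP+ cone-like than in RGC-like cells.

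Among the ligands, *Slit2*, a secreted repellent, was found at 96.3 CPM (84.1 to 110) in AC/HC-like cells, 61.6 CPM (57.7 to 65.6) in GFP+ cone-like cells and 52.4 CPM (48.5 to 56.6) in RGC-like cells. It was at 16.5 CPM in progenitor-like, 17.0 CPM in neurogenic-like and 22.3 CPM in RGC precursor-like cells. The first 3 groups thus lay above the other 3 in *Slit2*. Its relative *Slit1* stood at 0.382 CPM in progenitor-like cells (8 UMIs) and at 4.51 to 6.88 CPM in the other 5 groups. *Slit3* had 16 UMIs in all and *Ntn1*, which encodes netrin-1, had 22, of which 17 were in progenitor-like cells. No *Ntn1* UMI was found in GFP+, where 3 counts would be 0.187 CPM.

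Several semaphorins were highest in RGC-like or in progenitor-like cells. *Sema3a*, a secreted repellent that signals through neuropilin-1, was at 22.2 CPM (19.6 to 25.0) in RGC-like cells and between 0.258 and 1.76 CPM in the other 5 groups. *Sema6d* was at 13.5 CPM in RGC-like and 12.0 CPM in AC/HC-like cells, against 2.89 CPM in GFP+ cone-like cells. *Sema6a*, a membrane-bound ligand of A plexins, reached 54.4 CPM (50.3 to 58.6) in RGC-like cells and had its lowest level, 14.0 CPM (12.2 to 16), in GFP+ cone-like cells. The other 3 membrane semaphorins were highest in progenitor-like cells. *Sema4d*, a ligand of B plexins, was at 33.5 CPM (31.1 to 36.1) in progenitor-like, 20.8 CPM (17.7 to 24.2) in neurogenic-like, 13.5 CPM (8.54 to 20.2) in RGC precursor-like 3.32 CPM (2.38 to 4.50) in RGC-like and 1.74 CPM in GFP+ cone-like cells. *Sema5a* was at 7.30 CPM and *Sema5b* at 4.67 CPM there. *Sema3c* was below 2 CPM in every group, and so was *Sema3e*, 22 of whose 42 UMIs over both libraries lay in GFP+ cone-like cells.

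Of the ephrin-A genes, *Efna2* and *Efna5* were found at 33.1 CPM or more in each of the 6 groups. *Efna2* ranged from 33.1 CPM in GFP+ cone-like to 60.6 CPM in RGC-like cells. *Efna5* ranged from 46.8 to 60.2 CPM in 5 groups and reached 114 CPM (101 to 129) in AC/HC-like cells. *Efna3* was uneven, at 22.5 CPM in RGC-like cells and 0.708 to 2.15 CPM in the other groups.

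*Robo2* and *Robo3* were highest in cone-like cells and *Robo1* was not. *Robo2* (chr16:73891839-74411825, minus strand, GRCm38), a Slit receptor, was at 344 CPM in the GFP+ and 55.5 CPM in the GFP− library. By group it stood at 351 CPM (342 to 361) in GFP+ cone-like, 325 CPM (280 to 376) in GFP− cone-like, 96.7 CPM (91.3 to 102) in RGC-like and 27.2 CPM (25.0 to 29.6) in progenitor-like cells. The cone-like cells of both gates lay above every other group, and their intervals overlapped each other. A *Robo2* UMI was found in 72.9% of GFP+ cone-like and 72.2% of RGC-like cells. With cells thinned to 3200 UMIs and grouped again, these shares were 65.0% and 27.6%, and 8.71% in progenitor-like cells.

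*Robo3* (chr9:37415669-37433246, minus strand), a divergent family member known for letting axons cross the midline, had 365 UMIs in GFP+ (22.8 CPM) and 9 in GFP− (0.192 CPM). All but 1 of the GFP+ UMIs were in cone-like cells, at 23.4 CPM (21.1 to 25.9). Levels were 0.143 CPM in progenitor-like cells (3 UMIs), 0.324 CPM in RGC-like cells (4 UMIs) and 0.586 CPM in RGC precursor-like cells (1 UMI), and no UMI was found in AC/HC-like cells, where 3 counts would be 1.29 CPM. A UMI was present in 302 of 3667 GFP+ cone-like cells (8.24%, 7.37 to 9.17%; 6.63% after thinning) and in 4 of 886 RGC-like cells. *Robo1* stood at 15.2 CPM (9.94 to 22.3) in RGC precursor-like, 9.38 CPM in RGC-like and 0.836 CPM (0.445 to 1.43) in GFP+ cone-like cells.

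The promoter of *Robo3* is shown because this gene was the Robo member found almost only in GFP+ cone-like cells, and because its promoter was alone among the promoters of members that were higher in these cells in holding core letters that homeodomain factors of photoreceptors are known to bind. It covers 250 bases before to 50 bases after the start that the RefSeq table uses (chr9:37433126-37433425, GRCm38.p6, minus strand). That start, at 37433175, lies 71 bases inside the gene as annotated above, and the capitals mark GGATTA, the reverse of TAATCC, and TAATTA, which reads the same on both strands:
Robo3: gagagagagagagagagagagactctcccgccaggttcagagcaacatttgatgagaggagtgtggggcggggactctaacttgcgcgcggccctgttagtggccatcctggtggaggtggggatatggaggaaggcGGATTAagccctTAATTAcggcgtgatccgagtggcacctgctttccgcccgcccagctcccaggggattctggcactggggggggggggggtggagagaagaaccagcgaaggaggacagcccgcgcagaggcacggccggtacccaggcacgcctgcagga
The first begins 113 and the second 101 bases before the RefSeq start, and 42 and 30 bases before the annotated one. TAATCC, on either strand, was present in 2320 of 32841 promoters of the same length (7.06%) and in 1 of 23 promoters of members that were higher in GFP+ cone-like than in progenitor-like cells (a gene can have several). TAATTA was present in 1738 of all promoters (5.29%), in 1 of these 23 and, among the other members, in the promoter of *Epha5*. Neither was found in the 14 promoters of members that were lower. The letters were searched after the levels were seen, promoters were given for 34 of the 41 members, and a match describes the sequence without showing that a factor binds there.

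Netrin receptors differed in the groups where they were high. *Unc5a* (3.53 against 1.38 CPM) and *Unc5b* (6.01 against 1.86 CPM) were higher in progenitor-like than in RGC-like cells, while *Dcc* and *Unc5c* were lower. *Dcc*, which mediates attraction, was at 43.0 CPM (35 to 52.3) in AC/HC-like, 31.6 CPM (23.8 to 41.3) in RGC precursor-like, 17.6 CPM (15.6 to 19.8) in GFP+ cone-like, 15.9 CPM in RGC-like and 2.05 CPM (1.48 to 2.76) in progenitor-like cells. AC/HC-like and RGC precursor-like cells overlapped in their intervals, as did GFP+ cone-like and RGC-like cells. Of the repulsive Unc5 receptors, *Unc5a* was highest in GFP+ cone-like cells (9.52 CPM) and *Unc5c* in RGC-like cells (19.8 CPM, against 0.643 CPM in GFP+ cone-like cells). *Unc5b* stood at 6.01 CPM in progenitor-like and 6.45 CPM in AC/HC-like cells and at 1.17 to 2.58 CPM elsewhere. *Unc5d* had 24 UMIs in all.

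Neuropilins, the binding partners of secreted semaphorins, had different high groups. *Nrp1* was at 94.7 CPM (89.4 to 100) in RGC-like cells and at most 7.72 CPM in any other group. *Nrp2* was low, at 5.47 CPM in GFP+ cone-like cells (85 UMIs) and 0 to 1.78 CPM elsewhere. Among the plexins, *Plxnb2* was at 81.3 CPM (76.9 to 85.9) in GFP+ cone-like cells and between 16.8 and 28.2 CPM in the other 5 groups. *Plxna2* was at 44.3 CPM (36.2 to 53.7) in AC/HC-like cells, 8.81 CPM in GFP+ cone-like cells and 1.81 to 2.75 CPM in the rest. These plexins therefore each had a single high group. *Plxna3* (23.5 CPM in RGC-like cells), *Plxna1* (22.8 CPM in AC/HC-like and 21.6 CPM in RGC-like cells) and *Plxnb1* (24.5 to 26.4 CPM in 4 groups) were broader. *Plxna4* reached 4.12 CPM in GFP+ cone-like cells, and *Plxnd1* 4.77 CPM in progenitor-like cells.

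Eph receptors showed a broad member and several restricted ones. *Epha5* (chr5:84054761-84417382, minus strand), which binds ephrin-A ligands, was at 403 CPM (393 to 413) in GFP+ cone-like cells, 252 CPM in RGC precursor-like, 249 CPM in AC/HC-like, 222 CPM (216 to 229) in progenitor-like, 183 CPM (176 to 191) in RGC-like and 167 CPM in neurogenic-like cells. After thinning, 66.5% of GFP+ cone-like and 39.2 to 47.3% of RGC-like and progenitor-like cells had an *Epha5* UMI. *Epha3* was highest in RGC precursor-like cells, at 42.2 CPM (33.0 to 53.1), followed by neurogenic-like cells at 25.5 CPM (22.1 to 29.3), and was at 3.48 CPM in RGC-like cells. *Epha7* was at 16.3 CPM in GFP+ cone-like and 14.1 CPM in RGC precursor-like cells, and between 4.67 and 5.18 CPM elsewhere. *Epha4* (12.5 CPM in AC/HC-like cells) and *Ephb1* (13.4 CPM in RGC-like and 12.3 CPM in progenitor-like cells) were at their lowest in GFP+ cone-like cells, with 4 and 5 UMIs.

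The adhesion molecules included 3 with a single high group. *Cntn1* (chr15:92051165-92341967, plus strand), a GPI-anchored contactin of axons, was at 336 CPM in the GFP+ and 8.57 CPM in the GFP− library. It stood at 345 CPM (336 to 354) in GFP+ cone-like, 190 CPM (156 to 230) in GFP− cone-like, 14.2 CPM (12.1 to 16.4) in RGC-like and 3.29 CPM (2.56 to 4.17) in progenitor-like cells. *Cntn2*, its relative on early ganglion cell axons, was at 149 CPM (142 to 156) in RGC-like and 0.643 CPM (0.308 to 1.18) in GFP+ cone-like cells. The pair of contactins was thus oppositely distributed between cone-like and ganglion cell-like cells. *L1cam*, another axonal adhesion molecule, was also highest in RGC-like cells, at 123 CPM (117 to 130). It stood at 27.1 CPM in AC/HC-like cells, where *Cntn2* was at 2.15 CPM, and at 6.75 CPM in GFP+ cone-like cells. *Nrcam* was highest in progenitor-like cells (23.8 CPM) and lowest in GFP+ cone-like cells (4.18 CPM).

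Cone-like cells were next set against progenitors. A member was counted where its ratio passed 2-fold (0.5 UMI added to both sums, at least 30 UMIs). Of 37 members with enough UMIs, 18 were higher in GFP+ cone-like cells, where 27.8% of all 13124 genes were, and 13 were lower, where 14.6% of all genes were. The median log2 ratio was 0.88 over the members and 0.39 over all genes. The higher members were led by *Robo3* (140-fold, 55.6 to 797, on 364 against 3 UMIs), *Cntn1* (104-fold, 82.6 to 135), *Slit1* (14.4-fold, 7.38 to 36.2) and *Robo2* (12.9-fold, 11.8 to 14.1). *Nrp2* (8.54-fold), *Dcc* (8.51-fold), *Nrp1* (7.56-fold), *Plxna4* (5.27-fold), *Plxna2* (4.17-fold), *Slit2* (3.73-fold) and *Epha7* (3.48-fold) came next. By role, 12 of 21 receptors were higher and 6 lower, while 4 of 12 ligands were higher and 5 lower. The lower members had *Ephb1* (ratio 0.0288, 0.00845 to 0.0620), *Epha4* (0.0398), *Sema4d* (0.0528, 0.0339 to 0.0761) and *Sema5b* (0.103) at their end. GFP+ cone-like cells had fewer UMIs (median 3894) than progenitor-like cells (9930), and with mean UMIs per cell in place of CPM the split was 8 higher and 17 lower of 37, against 9.29% and 45.5% of all genes, so that the share of lower members was near that of all genes. *Epha5* was 1.81-fold higher (1.75 to 1.88) by CPM but lower by mean UMIs per cell (log2 -0.42), *Plxna3* (2.37-fold) and *Plxnb1* (2.02-fold) likewise changed side, and *Efna5* (1.14-fold) changed side also under TMM scaling, as did *Epha3* (1.01-fold).

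**Figure D2:**
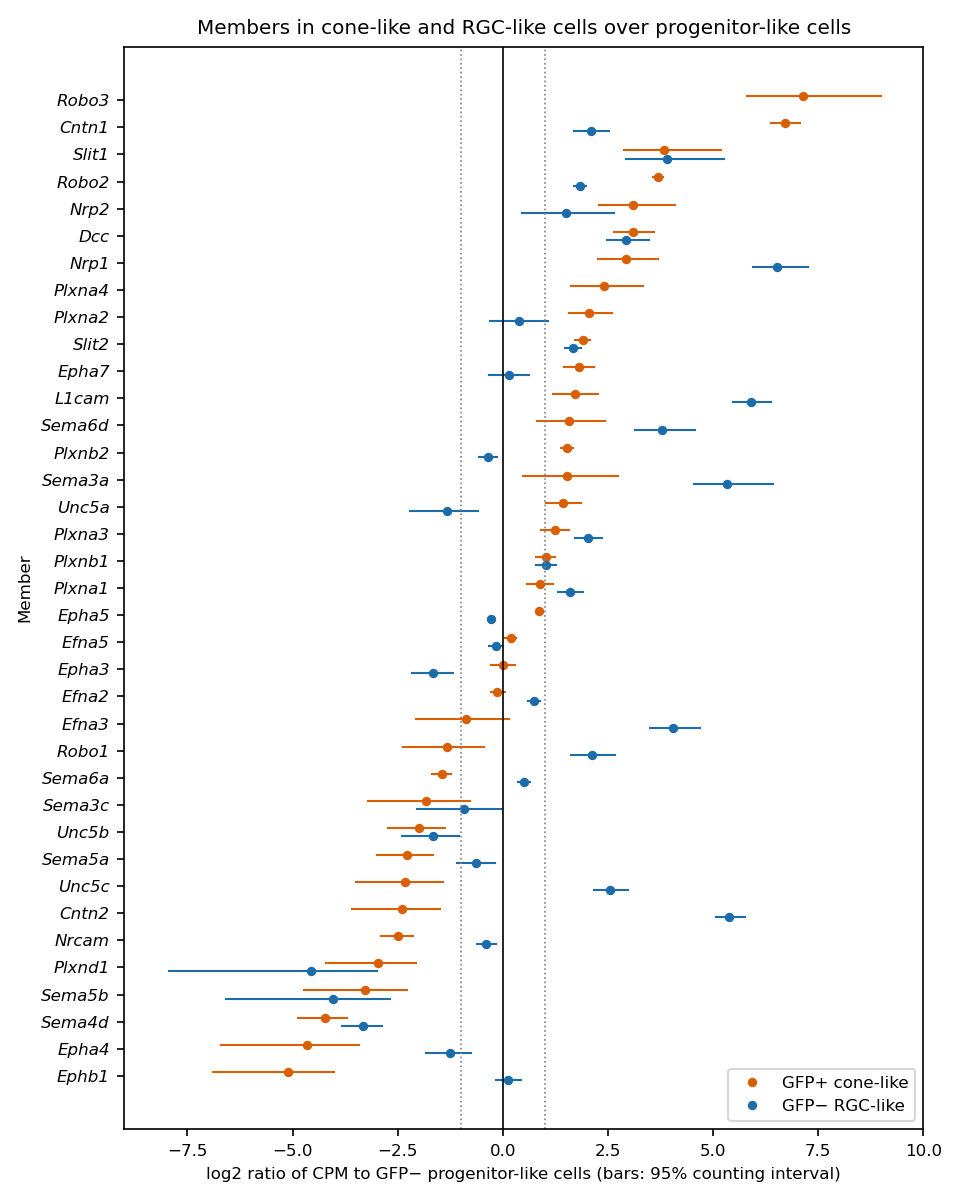
Log2 ratio of CPM in GFP+ cone-like cells (orange) and GFP− RGC-like cells (blue) to GFP− progenitor-like cells for members with at least 30 UMIs in the comparison. Points are ratios, bars 95% counting intervals, and dotted lines 2-fold. Both ratios share the progenitor-like cells. *Robo3* and *Cntn1* lie farthest right in orange, *Nrp1*, *L1cam* and *Cntn2* in blue.

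RGC-like cells, compared with the same progenitor-like cells, had 17 of 35 members higher (18.5% of 12772 genes) and 7 lower (19.9% of genes), with a median log2 ratio of 0.75 over the members and -0.06 over all genes. The share of lower members (20%) was near that of all genes. Higher were *Nrp1* (92.4-fold, 61.6 to 153), *L1cam* (59.5-fold, 44.4 to 83.5), *Cntn2* (41.9-fold, 33.4 to 53.9), *Sema3a* (40.5-fold, 23.2 to 85.6), *Efna3* (16.6-fold, 11.4 to 25.8), *Slit1* (15.1-fold), *Sema6d* (13.9-fold), *Dcc* (7.70-fold), *Unc5c* (5.91-fold) and *Robo1* (4.34-fold). *Robo2* was 3.55-fold higher (3.21 to 3.93) and *Cntn1* 4.28-fold (3.24 to 5.77). Lower were *Plxnd1* (ratio 0.0422), *Sema5b* (0.0603), *Sema4d* (0.100, 0.0705 to 0.136), *Unc5b* (0.315), *Epha3* (0.317), *Unc5a* (0.398) and *Epha4* (0.417). Of the 3 adhesion molecules that were higher, 2 exceeded 40-fold, while *Nrcam* was at 0.764 by CPM and above 1 by mean UMIs per cell (log2 0.05).

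In AC/HC-like cells 10 of 32 members were higher than in progenitor-like cells (16.2% of 12045 genes) and 6 were lower (17.2% of genes). The share of lower members (18.8%) was near that of all genes. *Plxna2* (21.0-fold, 14.7 to 30.8) and *Dcc* (20.8-fold, 100 against 43 UMIs) led, followed by *L1cam* (13.2-fold), *Sema6d* (12.5-fold), *Nrp1* (7.34-fold), *Slit2* (5.84-fold, 4.91 to 6.93), *Robo1* (4.66-fold), *Plxna1* (3.23-fold), *Efna5* (2.17-fold, 1.89 to 2.48) and *Robo2* (2.14-fold). *Sema4d* (0.0834), *Ephb1* (0.228), *Sema5b* (0.229), *Sema3c* (0.334, 0.00557 to 1.33), *Nrcam* (0.335) and *Sema5a* (0.382) were lower. With mean UMIs per cell the counts were 8 and 9 of 32, against 9.49% and 27.2% of all genes, and the share of lower members was near that of all genes. Of 5 endothelial markers, 4 had UMIs in AC/HC-like cells and summed to 292 CPM, of which *Cldn5* made 281 CPM, while *Kdr* was at 7.31 CPM and *Cdh5* at 0. Without cells with 10 or more UMIs of other-tissue markers the counts were again 10 and 6.

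Set directly against RGC-like cells, 11 of 35 members were higher in GFP+ cone-like cells (28.0% of 12743 genes) and 13 were lower (12.6% of genes), with medians of -0.33 over the members and 0.43 over all genes. The share of higher members (31.4%) was near that of all genes. Of the 11 higher, 10 were receptors, out of 20 receptors with enough UMIs. The other was *Cntn1* (24.3-fold, 20.9 to 28.5), and no ligand of 11 was higher. *Robo3* (64.4-fold, 28.0 to 267), *Plxna4* (7.89-fold), *Unc5a* (6.75-fold, 4.18 to 12.2), *Plxnb2* (3.68-fold, 3.23 to 4.21) and *Robo2* (3.63-fold, 3.41 to 3.87) stood first. *Plxna2*, *Epha3*, *Epha7*, *Nrp2* and *Epha5* (2.20 to 3.17-fold by CPM) were lower by mean UMIs per cell, at log2 values from -0.05 to -0.58. Lower by far were *Cntn2* (ratio 0.00454, 0.00207 to 0.00798), *Ephb1* (0.0263), *Efna3* (0.0328), *Unc5c* (0.0340), *L1cam* (0.0550), *Sema3a* (0.0710) and *Nrp1* (0.0818). With mean UMIs per cell 4 of 35 were higher and 24 lower, against 5.68% and 61.7% of all genes. *Robo2* (5459 UMIs in 3667 cone-like cells against 1195 in 886 RGC-like cells) was not among these 4. Nor was *Plxnb2* (1264 against 273 UMIs in the same cells).

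Over the whole libraries, 9 of 38 members were higher in GFP+ (20.8% of 14043 genes) and 17 were lower (15.8% of genes), with a median log2 ratio of -0.29 over the members and 0.27 over all genes. The share of higher members (23.7%) was near that of all genes. This comparison mixes cell groups, since GFP+ was nearly all cone-like. *Robo3* (112-fold, 61.7 to 261) and *Cntn1* (39.1-fold, 35.4 to 43.5) were again first, and 1 ligand, *Sema3e* (3.52-fold, 23 against 19 UMIs), was among the 9. With mean UMIs per cell 5 of 38 were higher and 22 lower, against 5.23% and 50.8% of all genes.

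The wider guidance machinery was counted in lists of other ligands and receptors (43 genes, 42 of them listed), adhesion molecules (23) and intracellular effectors (51). Against progenitor-like cells, GFP+ cone-like cells had 15 of 33 other ligands and receptors higher (45.5%, all genes 27.8%) and 11 lower (33.3%, all genes 14.6%). *Epha8* (866-fold, 299 to 8945, on 1605 against 2 UMIs), the netrin-G gene *Ntng2* (167-fold, 44.2 to 9908, on 185 against 1 UMI) and *Epha10* (64.2-fold, 29.1 CPM) led, and *Flrt1*, *Sema4a* and *Ephb4* were lowest (ratios 0.0299, 0.0987 and 0.143). Among adhesion molecules 5 of 21 were higher (23.8%), led by *Tenm1* (8.71-fold), *Nrxn3* (7.54-fold) and *Ncam2* (7.37-fold), and 9 lower (42.9%), with *Cntn3* at 0 against 30 UMIs, *Tenm4* at 0.0393 and *Cntn6* at 0.0790. Effectors were 11 higher and 9 lower of 49 (22.4% and 18.4%), near the shares of all genes, with the actin oxidase gene *Mical2* (36.2-fold) and the collapsin response mediators *Dpysl3* (35.7-fold) and *Crmp1* (4.68-fold) at one end, and *Tiam1* (0.0521), *Dock1* (0.0748) and *Ngef* (0.0906) at the other.

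In RGC-like cells, counted against the same progenitor-like cells, 24 of 48 effectors were higher (50%, all genes 18.5%) and 2 lower (4.17%, all genes 19.9%), with *Gap43* (137-fold), *Crmp1* (33.1-fold) and *Dpysl3* (25.3-fold) first and *Dock1* (0.0880) and *Ngef* (0.420) the lower ones. *Gap43* was also among the RGC markers chosen to check the RGC-like group, so its high ratio there is no separate result. Other ligands and receptors were 13 higher and 6 lower of 31 (*Dscam* 80.2-fold, *Sema6b* 30.7-fold, *Sema7a* 18.2-fold), and adhesion molecules 11 higher and 5 lower of 22 (*Cntn5* 36.8-fold, *Nfasc* 32.1-fold, *Nrxn2* 22.4-fold). Set against RGC-like cells, GFP+ cone-like cells had 2 of 48 effectors higher (all genes 28.0%), *Mical2* (26.1-fold) and *Farp2* (2.48-fold), and 20 lower (41.7%, all genes 12.6%). In AC/HC-like cells, 19 of 46 effectors were higher than in progenitor-like cells (41.3%, all genes 16.2%) and 5 lower (10.9%, all genes 17.2%), 10 of 26 other ligands and receptors were higher and 6 lower, and 8 of 18 adhesion molecules were higher and 4 lower, *Nrxn3* (83.9-fold) first among them.

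Cone-like cells were not uniform in these genes. The 93 cone-like cells of GFP− had *Robo2* at the level of those of GFP+ (ratio GFP+ over GFP− 1.08, 0.932 to 1.26), but *Cntn1* was 1.80-fold (1.5 to 2.22) and *Epha5* 1.63-fold (1.38 to 1.94) higher in GFP+. On 4 to 20 UMIs in GFP−, *Plxnb1* (3.28, 1.43 to 13.6), *Slit2* (2.24, 1.39 to 4.14), *Plxnb2* (2.23, 1.48 to 3.76) and *Efna5* (1.65, 1.09 to 2.79) were also higher in GFP+. *Robo3* had no UMI in GFP− cone-like cells. There 3 counts would be 5.33 CPM, and the level in GFP+ cone-like cells was 4.39-fold that value. The exact 95% lower limit of the ratio was 3.55. *Slit1*, *Dcc* and *Cntn2* went the other way: *Slit1* was at 28.4 CPM in GFP− and 5.79 CPM in GFP+ cone-like cells (ratio 0.199, 0.119 to 0.371), and *Dcc* at 49.8 and 17.6 CPM (0.349, 0.240 to 0.543). *Cntn2* was at 5.33 and 0.643 CPM (0.109, 0.0311 to 0.682), on 3 UMIs in GFP−. The GFP− cone-like cells also had more of other groups' markers. The 4 neurogenic joining markers summed to 277 CPM in them and to 83.4 CPM in GFP+ cone-like cells, the 5 progenitor ones to 315 and 99.7 CPM, and the 5 cone ones to 1834 and 4664 CPM. The 7 RGC joining markers summed to 76.4 and 32.7 CPM. Of the markers not used for grouping, cone markers summed to 421 CPM in the GFP− cone-like cells. Neurogenic (976 CPM), RGC (968 CPM) and progenitor markers (782 CPM) lay above them there. In GFP+ cone-like cells the cone markers, at 862 CPM, were highest, with 585, 583 and 697 CPM for those 3 lists. The part of this in these differences was not tested.

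Within GFP+, cone-like cells with 3 or more UMIs of *Fabp7*, a fatty acid binding protein gene that marks a cone subpopulation, were set against those with none (557 and 2154 cells). Past 2-fold were 5 of 24 members, where 5.70% of 11197 genes were, and all 5 were receptors that were lower in *Fabp7*-high cells. *Robo3* was at 6.47 against 30.7 CPM (ratio 0.216, 0.125 to 0.336), *Plxna4* at 1.02 against 5.01 CPM (0.235, 0.0405 to 0.637) and *Nrp2* at 1.70 against 5.71 CPM (0.325, 0.0928 to 0.745). *Unc5a* (0.356, 0.165 to 0.641) and *Nrp1* (0.412, 0.182 to 0.768) were the other two. The main cone-like members hardly differed, with *Robo2* at 1.19 (1.11 to 1.27), *Cntn1* at 0.903 (0.838 to 0.971) and *Epha5* at 0.909 (0.848 to 0.972). *Fabp7*-high cells were deeper, with a median of 4878 against 3733 UMIs.

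A second division of the GFP+ cone-like cells, chosen after the levels were seen, set 754 cells with a UMI of *Dll3*, a Notch ligand gene of newly formed neurons, and none of *Gnat2*, a cone transducin gene, against 971 cells with the reverse. Of 23 members 1 passed 2-fold (1.18% of 10467 genes): *Slit1*, at 8.92 against 4.06 CPM (ratio 2.17, 1.17 to 4.30). *Dcc* was also higher in *Dll3* cells (22.2 against 12.7 CPM, 1.74, 1.21 to 2.55). *Unc5a* (5.47 against 10.9 CPM, 0.508, 0.276 to 0.879) and *Robo3* (17.3 against 27.4 CPM, 0.632, 0.452 to 0.872) were higher in *Gnat2* cells. *Robo2* (1.01), *Cntn1* (0.952) and *Epha5* (0.966) had intervals that held 1. The divisions by gate, *Fabp7* and *Dll3* share GFP+ cone-like cells.

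**Figure D3:**
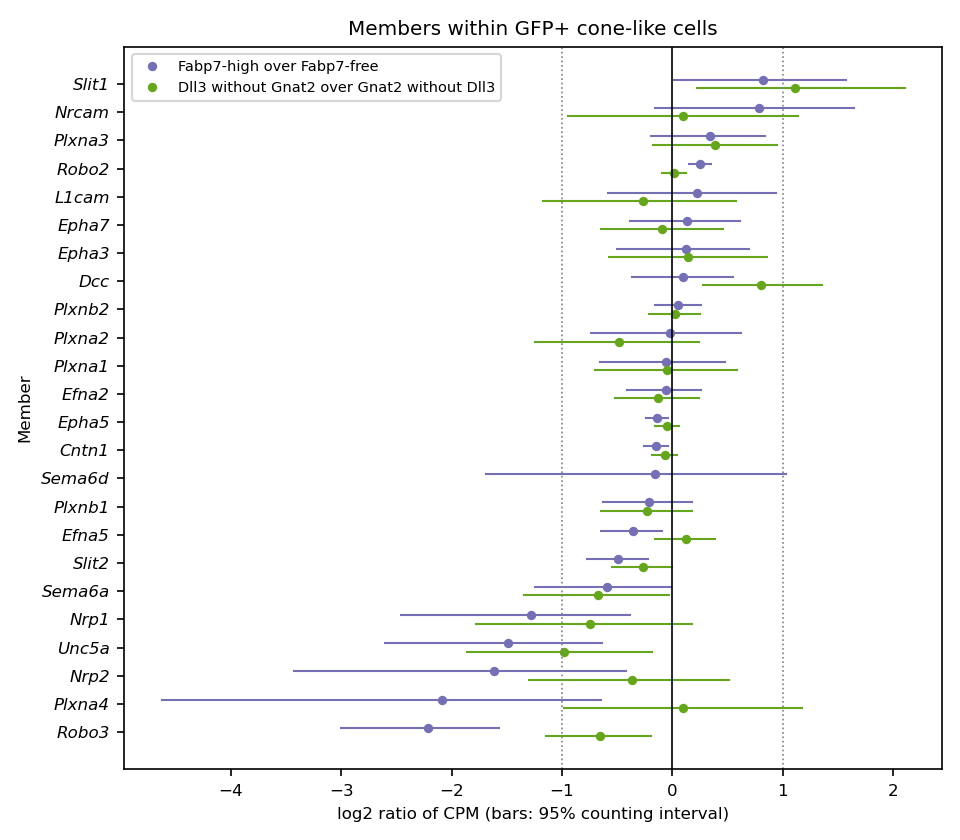
Log2 ratio of CPM within GFP+ cone-like cells for members with at least 30 UMIs in a division, *Fabp7*-high over *Fabp7*-free cells in purple and *Dll3* over *Gnat2* cells in green, with 95% counting intervals and dotted lines at 2-fold. *Robo3*, *Plxna4*, *Nrp2*, *Unc5a* and *Nrp1* lie left of the 2-fold line in purple, and *Slit1* lies right of it in green.

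Eph receptors and ephrins are known to be graded across the retina. Cells were divided by position genes, dorsal by a UMI of *Tbx5* or *Tbx2* without *Vax2* or *Vax1*, and ventral by the reverse. Along the dorsoventral axis 5 of 25 members passed 2-fold in progenitor-like cells (402 dorsal, 702 ventral; 1.88% of 10786 genes). *Unc5b* was at 13.3 CPM in dorsal and 1.42 CPM in ventral cells (9.06, 4.86 to 19.9), *Epha3* at 15.7 and 6.21 CPM (2.53, 1.72 to 3.76), *Epha4* at 2.12 and *Unc5c* at 2.09, all higher dorsally, and *Unc5a* was lower dorsally (0.476, 0.215 to 0.907). In RGC-like cells (111 and 466 cells) 4 of 26 did (3.77% of 10063 genes), among them *Ephb1*, at 32.5 against 10.3 CPM (3.18, 2.16 to 4.62), *Dcc* (0.420, 0.196 to 0.750) and *Unc5c* (0.449, 0.258 to 0.705). The fourth, *Sema5a* (2.15, 0.962 to 4.39), had an interval that held 1. *Unc5c* was thus higher dorsally in progenitor-like and ventrally in RGC-like cells. Of genes outside the set, *Efnb1* and *Efnb2*, known dorsal ephrins, were higher dorsally in progenitor-like (3.33 and 3.87) and RGC-like cells (6.70 and 6.05). In GFP+ cone-like cells their intervals held 1 (*Efnb1* 1.08, 0.8 to 1.48, and *Efnb2* 2.05, 0.964 to 5.15). Dorsal and ventral thus name only the position genes in GFP+ cone-like cells, and where these cells lay was not tested. In GFP+ cone-like cells (543 and 380 cells) *Epha7* alone passed 2-fold of 20 members (1.5% of 9380 genes), at 20.6 CPM in dorsal and 9.92 CPM in ventral cells (2.05, 1.2 to 3.79). There *Epha5* was 1.37-fold (1.23 to 1.51) and *Robo2* 1.24-fold (1.11 to 1.37) higher dorsally, and *Efna5* lower (0.679, 0.532 to 0.865). With 2 UMIs of a position gene required, *Epha7* was at 1.81 (10 against 4 UMIs) and no longer past 2-fold in GFP+ cone-like cells. Nor were *Dcc* in RGC-like (0.597) and *Unc5c* in progenitor-like cells (1.83). Other members passed it only then. In GFP+ cone-like cells these were *Plxna1* (0.418) and *Nrp1* (2.33), on 9 and 5 UMIs. In RGC-like cells they were *Cntn2* (0.482, 42 against 798 UMIs), *Epha7* (0.171, 0 against 26) and *Epha3* (0.245, 0 against 18). In progenitor-like cells they were *L1cam* (0.183, 0 against 11) and *Epha7* (2.17, 8 against 16).

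**Figure D4:**
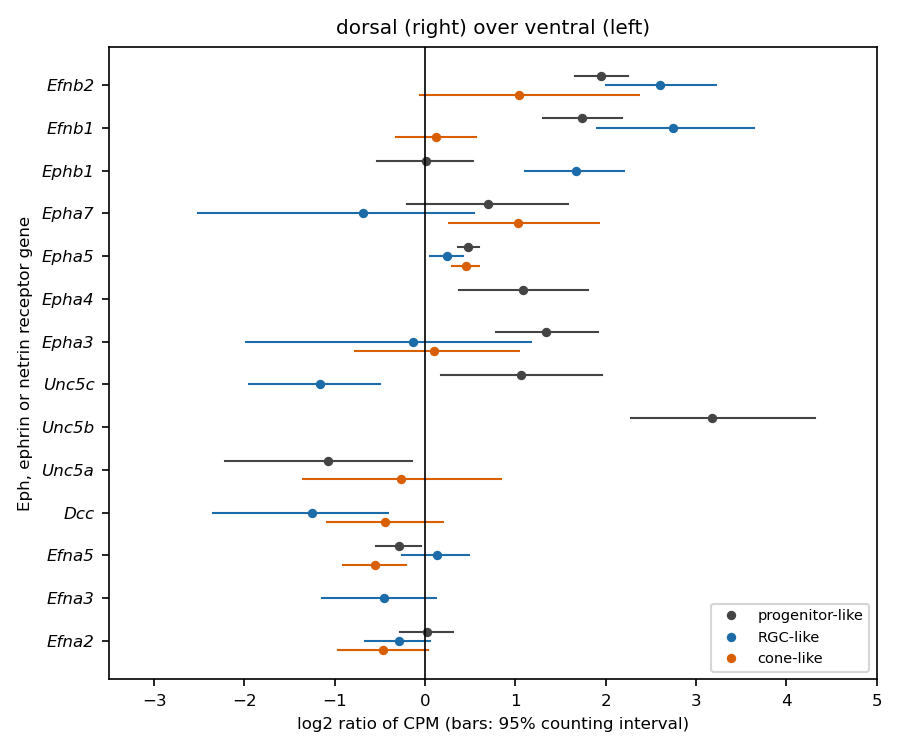
Log2 ratio of CPM between dorsal and ventral cells for Eph, ephrin and netrin receptor genes in progenitor-like (dark grey), RGC-like (blue) and GFP+ cone-like cells (orange), with 95% counting intervals. *Unc5b* lies farthest right among the members in progenitor-like cells, *Ephb1* in RGC-like cells and *Epha7* in GFP+ cone-like cells, and *Efnb1* and *Efnb2*, which are not members, lie right of 0 in progenitor-like and RGC-like cells.

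RGC-like cells with a UMI of *Zic2*, which marks ganglion cells that project to the same side of the brain, and none of *Isl2*, found in many that cross, were compared with the reverse (81 and 171 cells). Past 2-fold were 5 of 21 members (8.17% of 8119 genes). *Ephb1* had too few UMIs in this division to be among the 21. *Sema3a* was at 5.77 CPM in *Zic2* and 27.6 CPM in *Isl2* cells (0.225, 0.0743 to 0.478), *L1cam* at 54.8 and 152 CPM (0.364, 0.269 to 0.478) and *Nrp1* at 50 and 107 CPM (0.470, 0.340 to 0.628). *Sema6d* (0.358, 5 against 38 UMIs) was the fourth that was lower. *Dcc* was higher in *Zic2* cells, at 25.0 against 9.2 CPM (2.71, 1.5 to 4.94), as were *Epha5* (1.78, 1.51 to 2.08) and *Cntn2* (1.47, 1.24 to 1.74). With 2 UMIs of the dividing gene required, which left 9 and 65 cells, *Epha5* and *Sema6d* changed side. Levels in RGC precursor-like cells partly followed the *Zic2* side. *Sema3a* (1.76 against 22.2 CPM), *L1cam* (7.03 against 123 CPM), *Nrp1* (2.93 against 94.7 CPM) and *Sema6d* (1.17 against 13.5 CPM) were lower there than in RGC-like cells. *Dcc* (31.6 against 15.9 CPM) and *Epha5* (252 against 183 CPM) were higher there. *Cntn2* went the other way (8.2 against 149 CPM). Whether *Zic2* and *Isl2* cells differed in maturity was not tested.

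UMIs of ligands and of receptors were also counted together per cell. A share of cells with both follows the level of each gene and the depth of the cells, and is given as a description only. *Slit2* and *Robo2* UMIs occurred together in 567 of 3667 GFP+ cone-like cells (15.5%, 14.3 to 16.7%), where 761 had *Slit2* and 2673 *Robo2*, and in 10.7% after thinning, against 5.39% of RGC-like, 3.05% of AC/HC-like and 0.708% of progenitor-like cells after thinning. *Efna5* and *Epha5* occurred together in 10.3% of thinned GFP+ cone-like, 12.6% of AC/HC-like, 6.81% of progenitor-like and 3.72% of RGC-like cells. The adhesion gene *Cntn1* was counted with *Robo2* too, though the set does not hold it as a ligand. Both were present in 53.0% of GFP+ cone-like cells (51.4 to 54.6%, and 41.9% thinned), where 2611 had *Cntn1* and 2673 *Robo2*. In thinned RGC-like cells the share was 1.54%. *Sema3a* and *Nrp1* shared 149 of 886 RGC-like cells (16.8%; 1.67% thinned). In GFP+ cone-like cells, 24 had *Sema3a* and 109 *Nrp1*, and 0 of 3667 had both (0 to 0.101%). *Sema4d*, present in 26 of them, was found with *Plxnb2* in 13 (0.355%). Thinning kept the 3149 GFP+ and 4417 GFP− cells that were deep enough, and they were grouped again on the thinned UMIs. A thinned group therefore does not hold the same cells as before. Progenitor-like cells went from 2035 to 2261 and neurogenic-like cells from 804 to 442.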

How the data were processed

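Each sort gate of the pooled E14.5 *LHX4::GFP* retinas gave 1 library. For each, the authors deposited a matrix of raw UMI counts made with Cell Ranger 2.1.1 and mm10 (versions from the submitters’ processing notes), in whole numbers and not normalized. The members and gene lists were chosen with earlier results of these data known, and the *Dll3* division, the GFP− cone-like comparison and the promoter letters were added after the data were seen. Every member is named, and of each list up to 3 genes at either end with at least 30 UMIs.

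Cells joined groups by UMIs of markers: cone-like with 3 UMIs over 2 of *Gngt2*, *Gnb3*, *Pdc*, *Thrb* and *Crx*, RGC-like with 5 over 3 of *Nefl*, *Nefm*, *Sncg*, *Rbpms*, *Pou4f1*, *Pou4f2* and *Isl1*, AC/HC-like with 3 over 2 of *Tfap2a*, *Tfap2b*, *Ptf1a* and *Prdm13*. Cells that met more than 1 of these were mixed (5 GFP+, 55 GFP−). Of the rest, a *Pou4f2* UMI made RGC precursor-like cells. Next, a sum of 4 UMIs from any of 4 genes, among them *Olig2*, *Neurog2* and *Atoh7*, made neurogenic-like cells. Then 5 UMIs over 2 of 5 genes, among them *Sfrp2*, *Hes1*, *Ccnd1* and *Nr2e1*, made progenitor-like cells. The other joining markers of these groups and one planned division of cells are not reported here. No upper limit on genes was set, since limits of 250 to 3500 genes and a mitochondrial share under 0.25, read as a fraction although the study prints it as a percentage, left 345 of 886 RGC-like cells.

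Python 3.11.15, numpy 2.4.6, scipy 1.17.1, scanpy 1.11.5 (Scrublet) and edgeR 4.0.16 (TMM factors) were used. Ratio intervals were tried on simulated Poisson counts. The intervals assume such counts, so this trial cannot show the spread between cells or embryos. Alternatives covered filters, scalings, thresholds and stricter groups.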

Additional observations from a re-analysis of the deposited data

How the results depend on the processing

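Counts of members past 2-fold in the 5 comparisons were within 1.5 times the reported count for 117 of 128 values. The other 11 came from the fold and from mean UMIs per cell. At 1.5-fold, 14 of 38 members were higher in the GFP+ library, near the share of all genes (36.4%). At 4-fold, 5 of 38 were higher (all genes 6.78%) and 11 lower there (all genes 8.97%). In cone-like cells, 9 of 37 were higher than in progenitor-like cells (all genes 11.3%) and 4 of 35 than in RGC-like cells (all genes 9.53%). Lower than in progenitor-like cells were 3 of 35 in RGC-like (all genes 9.38%) and 3 of 32 in AC/HC-like cells (all genes 8.3%). With mean UMIs per cell, 5 were higher in the GFP+ library, 8 in cone-like than progenitor-like cells, and 4 higher and 24 lower in cone-like than RGC-like cells. The shares of all genes under that scaling are given with each comparison above. That scaling also reversed *Plxna3* (log2 -0.04) and *Plxnb1* (-0.26) against progenitor-like cells, and *Plxna2* (-0.05), *Nrp2* (-0.12), *Epha3* (-0.05), *Epha5* (-0.58) and *Epha7* (-0.07) against RGC-like cells. TMM factors moved the median log2 ratio of all genes in cone-like over progenitor-like cells from 0.39 to 0.01. Under TMM, 16 of 37 members were higher and 14 lower, against 19.1% and 19.7% of all genes. With 2 UMIs of the dividing gene, *Sema6d* (0.37) and *Epha5* (-0.10) reversed between *Zic2* and *Isl2* cells. Limits on genes and mitochondrial fraction, doublets, thinning and stricter groups reversed no counted member. Leaving out other-tissue cells kept the counts of members, and single members were not compared under that setting. No paired analysis was possible because each gate had 1 library, so that no library could be left out either. Depth limits *Ntn1*, *Slit3*, *Unc5d* and *Sema3e*, which had at most 42 UMIs each. Levels and ratios were less steady than the counts of members. Thinning moved 44 of the levels compared and left 84 the same. Thinned cells were also grouped again, and the part of this in the moved levels was not tested. *Slit2* in RGC-like cells went from 52.4 CPM (48.5 to 56.6) to 63.4 CPM. In GFP+ cone-like cells it was at 61.6 CPM and, thinned, at 61.7 CPM. Over all settings 145 comparison ratios moved, 7 reversed and 647 were the same. Mean UMIs per cell gave 75 of those that moved.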
